A study of Mus musculus with 6 samples.

Results

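The kallikrein-related peptidase genes Klk5 to Klk14 are 10 neighbouring genes of mouse chromosome 7 that encode secreted serine proteases. They were taken by gene symbol, and all 10 had a probe set with that symbol alone, out of 19938 genes measured that way. Every member had 1 probe set, and its Entrez identifier matched the same symbol in RefSeq for 10 of 10. The cells were cultured keratinocytes from the skin of C57BL/6 mice at E18.5, shortly before birth. Before calcium was added they grew for 2 to 5 days, and afterwards for another 3 to 5 days.

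The zinc finger transcription factors Ovol1 and Ovol2 act in epithelia, and 3 genotypes were compared with 2 Affymetrix arrays each. The Ovol1/2 double knockout (DKO) was Ovol2flox/-;K14-Cre; Ovol1-/-. Its second Ovol2 copy is thus lost only where K14-Cre, driven by the keratin 14 promoter of basal keratinocytes, is active. The Ovol1 knockout (Ovol1 KO) was Ovol1-/-, with no Ovol2 genotype in its label. Controls were Ovol2flox/+ together with either Ovol1+/- or K14-Cre. A control pool may thus itself lack 1 Ovol1 copy or, where K14-Cre is active, 1 Ovol2 copy. Each array held RNA of 2 mice, and calcium was added in all groups, so no array shows the undifferentiated state. The labels call the arrays of a group biological replicates, which are written here as DKO 1, DKO 2 and so on.

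Kallikrein-related peptidases are made as inactive precursors and are switched on by a cut from another protease. In the outer epidermis they cut the proteins that hold corneocytes together, so that these can be shed, and the inhibitor LEKTI, encoded by Spink5, holds them in check. Most cut after arginine or lysine, as trypsin does, while human KLK7 prefers the residues that chymotrypsin cuts after.

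Values are probe-set intensities that the authors had summarised, here written as log2(intensity + 16) after quantile normalization, and a difference of 1 is a 2-fold change. Levels are compared between arrays for 1 probe set, never between genes, and as the files hold no detection call, low values may be background. Differences come from limma fitted over all genes and all 6 arrays, with Benjamini-Hochberg adjustment, and genes with an adjusted p under 0.05 are written as called. Keratinocyte markers were bright on every array, with 10 of 10 at log2 levels of at least 10.96. Neither targeted gene lay below the control range on the arrays of its knockout. Ovol1 lay at 10.58 and 10.59 in DKO, 10.53 and 10.22 in Ovol1 KO, and 10.27 and 9.85 in control. Ovol2 lay at 8.71 and 8.32 in DKO, 9.0 and 8.99 in Ovol1 KO, and 8.12 and 8.82 in control. Whether either probe set lies in the deleted part is not given in the sources used here. All arrays carry a female label, yet the female-specific RNA Xist lay at 12.12 and 12.26 in DKO, at 4.59 and 11.97 in Ovol1 KO, and at 4.71 and 4.65 in control. The Y-linked gene Kdm5d lay at 7.53 and 7.64 in DKO, 14.70 and 7.50 in Ovol1 KO, and 14.70 and 14.70 in control. Both control arrays and Ovol1 KO 1 thus had the pattern of male RNA, against their label. The DKO and control arrays differed in this pattern as well as in genotype, and these cannot be told apart between those groups.

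Klk8 was the member that fell in DKO keratinocytes, against both other genotypes. It encodes neuropsin, a trypsin-like protease of the epidermis and of the hippocampus. Its log2 level was 11.68 and 11.57 in the DKO arrays, 13.11 and 12.67 in Ovol1 KO, and 13.10 and 12.72 in control. Both DKO arrays lay below all 4 others, and the gap was wider than the difference between any 2 arrays of a group. As deposited, the intensities were 3232 and 2894 in DKO, 8603 and 6433 in Ovol1 KO, and 8569.9 and 6601 in control. Against control the log2 fold change was -1.29 (SE 0.18, 95% interval -1.72 to -0.86, limma adjusted p = 0.0158), a level 2.44-fold lower. Against Ovol1 KO it was -1.27 (SE 0.18, adjusted p = 0.0203), or 2.41-fold lower. In these bulk cultures fewer cells that express the gene and less of its RNA per cell cannot be told apart.

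For Klk8, DKO 1 minus control 1 was -1.43 and DKO 2 minus control 2 was -1.15. Arrays with the same number are not known to be pairs, so these differences only describe the values. Among the 3 arrays with high Xist, the DKO mean minus Ovol1 KO 2 was -1.05 log2 units. The call against control was lost without DKO 1 (adjusted p = 0.083) or without DKO 2 (adjusted p = 0.0914). Against Ovol1 KO it was lost without DKO 1 (adjusted p = 0.0985), DKO 2 (adjusted p = 0.117) or Ovol1 KO 1 (adjusted p = 0.137). With the Xist level as a covariate the values were -0.84 against control (limma adjusted p = 0.657) and -1.04 against Ovol1 KO (limma adjusted p = 0.159). Within a genotype Xist differed widely only between Ovol1 KO 1 and Ovol1 KO 2, so these values rest almost wholly on that pair. Those arrays also differ in replicate number, and Klk8 was likewise higher on control 1 than on control 2, both low in Xist. The covariate thus does not separate sex pattern from replicate.

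**Figure D1:**
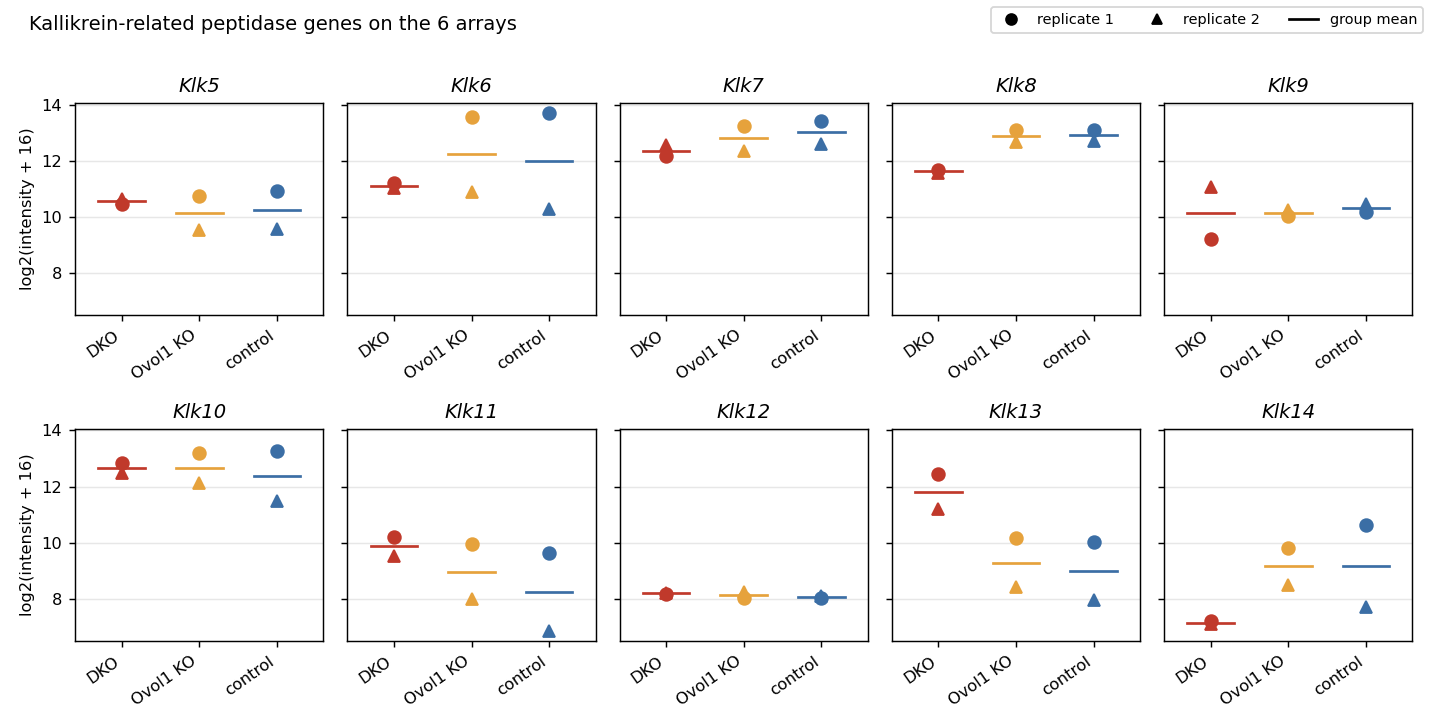
Log2(intensity + 16) of the 10 kallikrein-related peptidase genes on each array, after quantile normalization, with DKO left, Ovol1 KO in the middle and control right. Circles are replicate 1, triangles replicate 2 and lines the group means (n = 2). Klk8 shows 2 close DKO points below the other 4, and Klk6, Klk11 and Klk14 show wide gaps between the arrays of the control group.

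Against control, 1 of the 10 members fell, 0 rose and 9 did not pass. Over all 19938 genes 3.2% were called, 0.943% higher and 2.26% lower. With an unadjusted p under 0.05 there were 2 members, Klk8 and Klk13, against 14.5% of all genes. The median log2 fold change of the members was -0.03, beside 0.02 over all genes, but the median absolute change was 0.77 beside 0.17. The changes ran from -2.03 to 2.83, so the members did not shift in 1 direction. The groups did not overlap for 5 members, 2 with DKO higher and 3 with DKO lower, and this held for 44.6% of all genes.

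Klk13 and Klk14, next to each other on the chromosome, were the other members with both DKO arrays outside all 4 others, in opposite directions. Together with Klk8 this made 1 member higher and 2 lower, while 30.3% of all genes had the DKO arrays outside the others. Klk13 encodes a trypsin-like secreted protease. Its level was 12.43 and 11.21 in DKO, 10.17 and 8.41 in Ovol1 KO, and 10.04 and 7.94 in control. As deposited, that is an intensity of 5498 and 2265 in DKO, 1162 and 323 in Ovol1 KO, and 1053 and 232 in control. The lower DKO array was about 1 log2 unit above the higher array of the other groups, and within each genotype replicate 1 was the higher. The log2 fold change against control was 2.83 (SE 0.82, 95% interval 0.88 to 4.78), which did not pass (adjusted p = 0.156). Against Ovol1 KO it was 2.53 (SE 0.82, 95% interval 0.58 to 4.48, adjusted p = 0.24). By replicate number the differences from control were 2.40 for DKO 1 and 3.26 for DKO 2.

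Klk14 encodes a trypsin-like protease that in human skin is active in the stratum corneum. It lay at 7.20 and 7.09 in DKO, 9.81 and 8.50 in Ovol1 KO, and 10.62 and 7.71 in control. The deposited intensities were 119 and 132 in DKO, 908 and 346 in Ovol1 KO, and 1593 and 196 in control. The DKO arrays were lowest and close together, while the control arrays differed 7.51-fold from each other. The DKO levels were near 7.11, the level that bounds the dimmest 30% of genes, so they may be background. The log2 fold change was -2.03 against control (SE 0.88, 95% interval -4.11 to 0.05, adjusted p = 0.359). The DKO minus Ovol1 KO value was -2.01 (95% interval -4.09 to 0.07, adjusted p = 0.395). The size of both values against control depended on which control array was kept. Without control 1 the log2 fold change was 3.88 for Klk13 and -0.57 for Klk14. Without control 2 it was 1.79 for Klk13 and -3.48 for Klk14. From the DKO and Ovol1 KO arrays alone, both passed in the comparison of these groups (adjusted p = 0.0358 for Klk13 and 0.0222 for Klk14).

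The other members known for corneocyte shedding, Klk5 and Klk7, did not pass. Klk5 encodes a trypsin-like protease that in human skin activates itself and the precursors of KLK7 and KLK14. Its level was 10.47 and 10.64 in DKO, 10.75 and 9.55 in Ovol1 KO, and 10.93 and 9.58 in control. The DKO arrays lay between the 2 control arrays, and the log2 fold change was 0.30 (95% interval -0.91 to 1.52, adjusted p = 0.894). Klk7 encodes the stratum corneum chymotryptic enzyme, which cuts corneodesmosin. It lay at 12.16 and 12.55 in DKO, 13.24 and 12.36 in Ovol1 KO, and 13.41 and 12.60 in control. DKO 2 was just under control 2 and above Ovol1 KO 2, so the groups overlapped against Ovol1 KO only. The log2 fold change was -0.66 against control (95% interval -1.48 to 0.17, adjusted p = 0.481) and -0.45 against Ovol1 KO (95% interval -1.27 to 0.37, adjusted p = 0.625).

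Klk6, Klk10 and Klk11 varied more within the control group than between genotypes. Klk6 encodes neurosin, a trypsin-like protease also made in the central nervous system. Its level was 11.19 and 11.03 in DKO, 13.57 and 10.89 in Ovol1 KO, and 13.72 and 10.27 in control. The DKO arrays sat inside the control range, and the interval of the log2 fold change of -0.88 reached from -3.69 to 1.92 (adjusted p = 0.856). Klk10, whose human counterpart was described as a gene of normal breast epithelium that is often silent in tumours, lay at 12.85 and 12.47 in DKO, 13.20 and 12.12 in Ovol1 KO, and 13.25 and 11.49 in control. Here too the DKO arrays were inside the control range, with a log2 fold change of 0.29 (95% interval -1.07 to 1.65, adjusted p = 0.909). Klk11 encodes a further trypsin-like secreted protease. It lay at 10.20 and 9.54 in DKO, 9.94 and 8.0 in Ovol1 KO, and 9.64 and 6.85 in control. Control 2 was the lowest array by more than 1 log2 unit, and the log2 fold change was 1.62 (95% interval -0.63 to 3.88, adjusted p = 0.535).

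Klk9 differed most between the DKO arrays, and Klk12 varied least. Klk9 lay at 9.20 and 11.06 in DKO, 10.02 and 10.23 in Ovol1 KO, and 10.19 and 10.46 in control. Its DKO arrays fell on either side of all the others, so the mean log2 fold change of -0.20 against control (95% interval -1.46 to 1.07, adjusted p = 0.941) describes neither array. Klk12 lay at 8.16 and 8.22 in DKO, 8.04 and 8.25 in Ovol1 KO, and 8.03 and 8.09 in control. Its whole range over the 6 arrays was 0.22, the smallest of the 10 members, and its log2 fold change was 0.13 (95% interval -0.28 to 0.54, adjusted p = 0.853).

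Against Ovol1 KO, 1 member fell, 0 rose and 9 did not pass. By the labels, this comparison adds the Ovol2 alleles and K14-Cre on the Ovol1 knockout background. Ovol1 KO 1 also differed from the DKO arrays in Xist pattern, so the difference is not that of Ovol2 loss alone. Over all genes 2.15% were called, 0.657% higher and 1.49% lower. The called member was again Klk8, and both comparisons use the same DKO arrays. With an unadjusted p under 0.05 there were 2 members, against 13.3% of all genes. The groups did not overlap for 3 members, Klk8, Klk13 and Klk14, and for 42.2% of all genes. The median log2 fold change was 0.00, beside 0.09 over all genes. Klk11 had a value of 0.89 (95% interval -1.36 to 3.15, adjusted p = 0.707), Klk6 of -1.12 (95% interval -3.92 to 1.69, adjusted p = 0.707) and Klk5 of 0.41 (95% interval -0.81 to 1.63, adjusted p = 0.753).

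Loss of Ovol1 alone gave no called member. Set against control, limma called 0 of the 10, and an unadjusted p under 0.05 was found for 0, while over all genes 0% were called and 0.813% had such a p. The groups overlapped for all 10 members, and did not overlap for 24.1% of all genes. The log2 fold changes ran from -0.21 for Klk7 to 0.73 for Klk11. Klk8 had -0.02 with a 95% interval of -0.45 to 0.41, and Klk12 had 0.09 with an interval of -0.33 to 0.50. For Klk6 the interval was -2.57 to 3.04, so a change of several fold either way was not detectable with these arrays.

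Within the Ovol1 KO and control groups the kallikrein genes split by replicate. Control 1 lay at least 1 log2 unit from control 2 for 6 of the 10 members, Klk5, Klk6, Klk10, Klk11, Klk13 and Klk14, and was the higher array each time. Over all genes 2.75% were that far apart. Ovol1 KO 1 and Ovol1 KO 2 were that far apart for the same 6 members, again with replicate 1 higher, and for 2.65% of all genes. Between the DKO arrays only Klk9 and Klk13 were, 1 in each direction, and 2.4% of all genes. The median absolute difference between the 2 arrays was 0.28 for the members in DKO, 1.14 in Ovol1 KO and 1.56 in control, beside all-gene medians of 0.21 in DKO, 0.24 in Ovol1 KO and 0.17 in control. The widest was that of Klk6, with control 1 higher than control 2 by 10.9-fold and Ovol1 KO 1 higher than Ovol1 KO 2 by 6.43-fold, while the DKO arrays differed 1.11-fold. In Ovol1 KO the replicates also differed in Xist level (4.59 and 11.97), and replicate and Xist pattern cannot be told apart there. Both control arrays were low in Xist. With 2 arrays a group, whether the split differs between genotypes was not tested.

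As for those kallikreins, several markers of pigment cells were higher on replicate 1 in Ovol1 KO and in control. Some were also higher on DKO 1, where most kallikreins did not split. The summed intensity of 9 melanocyte markers was 1998 and 1185 in DKO, 7029 and 1585 in Ovol1 KO, and 5318 and 1498 in control. Replicate 1 was at least 1 log2 unit higher for 4 of the 9 in DKO, 6 in Ovol1 KO and 6 in control, and none of the 9 was at 0. Of these 9 only Kit was called, lower in DKO against control (log2 fold change -1.43, adjusted p = 0.0346) and against Ovol1 KO (log2 fold change -2.14, adjusted p = 0.0111). Tyrp1, a pigment synthesis gene, lay at 8.46 and 5.72 in DKO, 11.05 and 5.63 in Ovol1 KO, and 10.52 and 5.81 in control. Of 5 endothelial markers only Kdr was that far apart, at 6.79 and 6.65 in DKO, 9.95 and 8.63 in Ovol1 KO, and 10.49 and 8.51 in control. The fibroblast, immune and Schwann cell lists held no gene with replicate 1 that far above replicate 2. Single markers were lower in DKO, as Klk8 was. Called lower against control were 1 of 2 Schwann cell, 1 of 7 fibroblast and 1 of 10 keratinocyte markers, beside 2.26% of all genes. The median log2 fold change against control was 0.12 for the fibroblast list and 0.03 for the keratinocyte list. S100b of the Schwann cell list had 0.19 against control and did not pass. The Schwann cell marker Mbp lay at 9.53 and 9.46 in DKO, 10.58 and 10.55 in Ovol1 KO, and 10.70 and 10.60 in control, and fell against control (log2 fold change -1.15, adjusted p = 0.0147) and against Ovol1 KO (log2 fold change -1.07, adjusted p = 0.0233). The fibroblast marker Pdgfra fell against control (log2 fold change -1.06, adjusted p = 0.0309). Itgb4, from the keratinocyte list, fell against control (log2 fold change -0.79, adjusted p = 0.03) and against Ovol1 KO (log2 fold change -0.77, adjusted p = 0.0403). The part of other cell types in the split and in the fall of Klk8 was not tested.

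**Figure D2:**
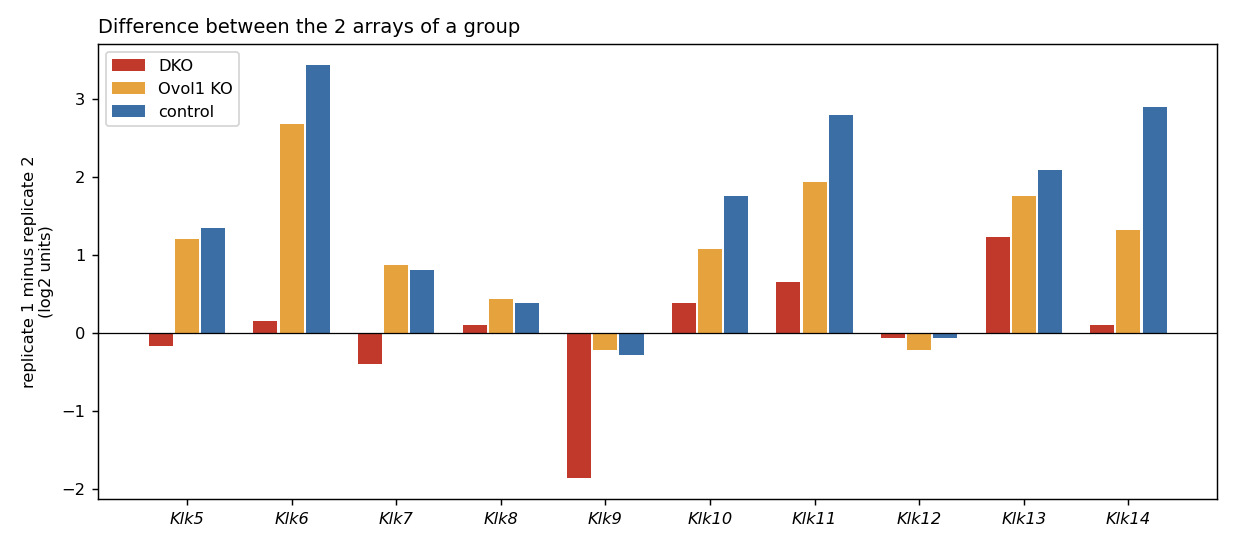
Replicate 1 minus replicate 2 in log2 units for each kallikrein gene, with DKO (red) left, Ovol1 KO (orange) in the middle and control (blue) right. Bars above 1 in Ovol1 KO and control mark the 6 members that split in both groups, and the Klk9 bar of -1.86 is the widest of the DKO group.

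Along the chromosome the RefSeq order runs from Klk14 through Klk13 down to Klk5, with no other measured gene between them. The 5 measured genes before Klk14 were Zfp719, Zfp819, Ceacam18, Siglece and Ctu1, and 0 of them passed against control, with log2 fold changes from -0.15 to 0.47. The 5 after Klk5 were Klk4, Klk15, Klk1b7-ps, Klk1b8 and Klk1b1, and 0 of them passed either, with values from -0.38 to 0.06. The stretch of 10 members itself held values from -2.03 to 2.83. Klk14 at -2.03 and Klk13 at 2.83 lie side by side at its one end. Towards the other end Klk9, Klk8, Klk7 and Klk6 had negative values in a row against control, of which only that of Klk8 passed. Of the remaining kallikrein genes, the 11 measured members of a list of 17 gave 0 calls in either DKO comparison. An unadjusted p under 0.05 against control or Ovol1 KO was found for 0 of the 11, beside 14.5% and 13.3% of all genes. These genes, mostly the Klk1b group known from mouse salivary gland, are close copies of each other, so their probe sets may not separate them.

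**Figure D3:**
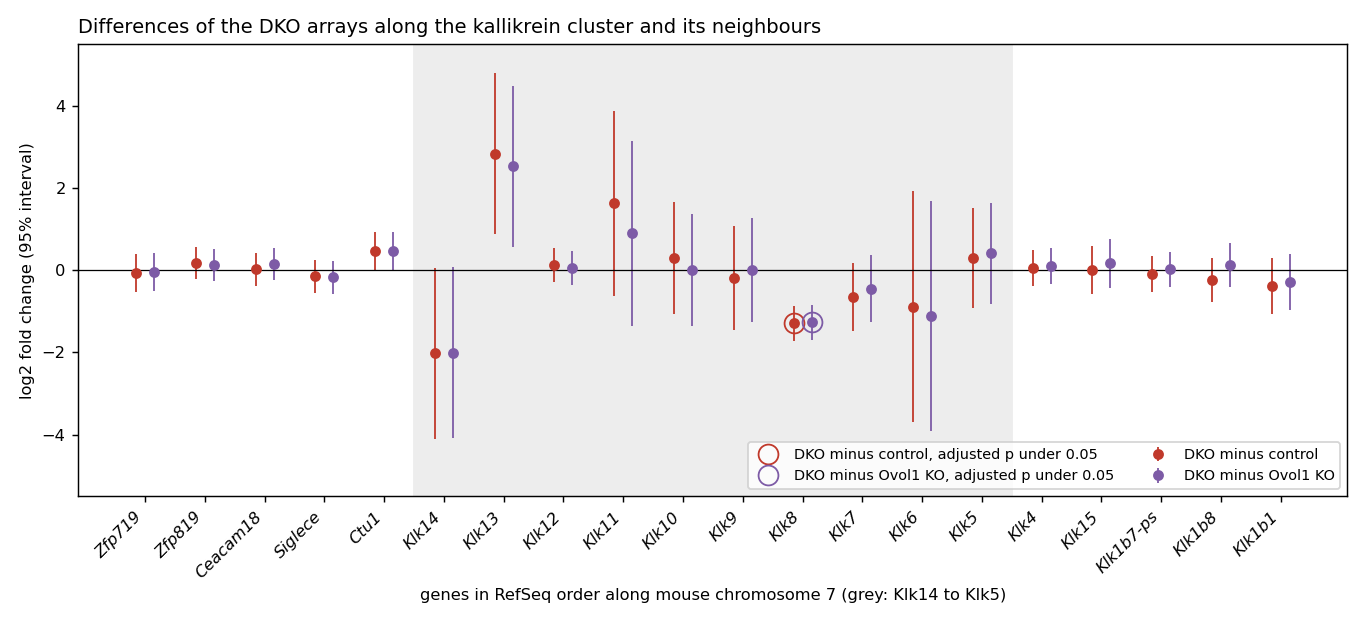
Log2 fold changes with 95% intervals of DKO minus control (red, left of each pair) and DKO minus Ovol1 KO (purple) for the 10 members (grey band) and 5 measured genes on either side, in chromosome order. Rings mark an adjusted p under 0.05, which both Klk8 points carry, and the neighbours lie between -0.38 and 0.47 against control.

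The start regions of the members whose DKO arrays stood apart are shown so that they can be set beside Klk12, which hardly varied. They come from RefSeq with build GRCm38.p6, on the plus strand, and span 250 bases before to 50 after a gene start. The windows are chr7:43797327-43797626 for Klk8, chr7:43712317-43712616 for Klk13, chr7:43690168-43690467 for Klk14 and chr7:43768850-43769149 for Klk12. Capitals mark CACCTG or its reverse complement, the E-box that Zeb repressors bind.
Klk8: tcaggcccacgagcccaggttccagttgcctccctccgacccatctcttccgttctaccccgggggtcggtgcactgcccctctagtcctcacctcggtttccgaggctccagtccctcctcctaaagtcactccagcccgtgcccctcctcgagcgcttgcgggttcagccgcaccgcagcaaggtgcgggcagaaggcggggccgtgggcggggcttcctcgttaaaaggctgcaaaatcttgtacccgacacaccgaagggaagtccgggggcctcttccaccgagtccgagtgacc
Klk13: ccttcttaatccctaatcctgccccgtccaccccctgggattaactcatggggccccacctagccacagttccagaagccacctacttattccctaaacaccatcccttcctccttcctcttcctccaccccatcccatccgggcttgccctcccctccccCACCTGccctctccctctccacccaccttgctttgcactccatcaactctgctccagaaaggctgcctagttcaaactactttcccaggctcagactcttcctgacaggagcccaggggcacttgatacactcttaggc
Klk14: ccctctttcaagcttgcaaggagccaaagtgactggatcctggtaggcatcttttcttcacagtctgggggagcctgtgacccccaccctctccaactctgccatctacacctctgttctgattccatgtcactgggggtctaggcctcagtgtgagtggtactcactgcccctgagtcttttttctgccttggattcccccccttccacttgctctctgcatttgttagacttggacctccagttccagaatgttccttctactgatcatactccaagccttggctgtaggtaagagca
Klk12: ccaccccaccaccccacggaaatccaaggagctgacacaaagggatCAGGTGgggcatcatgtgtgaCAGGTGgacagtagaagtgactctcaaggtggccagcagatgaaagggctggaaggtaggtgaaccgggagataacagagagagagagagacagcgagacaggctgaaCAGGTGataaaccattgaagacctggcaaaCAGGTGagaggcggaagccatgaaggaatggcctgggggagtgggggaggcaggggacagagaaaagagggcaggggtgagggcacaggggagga

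Matches to 3 short motifs were counted on both strands in the 12 windows that RefSeq gives for the 10 members. CACCTG was present in 4 windows, those of Klk5, Klk12, Klk13 and the first of 2 for Klk11, and in 20.2% of all 32851 windows. In the Klk13 window it began at -89 from the gene start, and in the Klk12 window, read as CAGGTG, at -204, -183, -75 and -45. The windows of Klk8 and Klk14 held none. CCGTTA, an element bound by Ovol1, had 0 matches in the 12 windows, against 2.76% of all windows. TGANTCA, the AP-1 element, had 0 matches as well, against 7.81% of all windows. No 2 motifs overlapped in the member windows, and a match or its absence is a description of these letters only.

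Of 14 other epidermal proteases, 5 fell in DKO against control and 0 rose. All are serine proteases except the meprin genes Mep1a and Mep1b, which encode metalloproteases, and some act upstream of the kallikreins. The remaining 9 did not pass, and over all genes 2.26% were called lower and 0.943% higher. The median log2 fold change of the 14 was -0.40, beside 0.02 over all genes. St14 encodes matriptase, which in mouse epidermis can start the activation of kallikrein precursors, and it fell by 1.81 (SE 0.19, adjusted p = 0.00621). St14 lay at 10.07 and 10.04 in DKO, 11.98 and 11.55 in Ovol1 KO, and 12.05 and 11.69 in control, with no overlap. Prss8, which encodes the matriptase partner prostasin, fell by 2.27 (SE 0.21, adjusted p = 0.00388). Tmprss11e and Tmprss11d, membrane-anchored proteases, fell by 4.66 (adjusted p = 0.00173) and fell by 4.42 (adjusted p = 0.00697), to DKO means of 6.87 and 5.26. Both means lie under 7.11, the level that bounds the dimmest 30% of genes, so they may be background and the size of these falls is uncertain. Plau, which encodes urokinase, fell by 1.33 (adjusted p = 0.0325).

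Against Ovol1 KO, 4 of the 14 fell and 0 rose, while 10 missed the threshold. Over all genes 1.49% were called lower and 0.657% higher. The median of the 14 was -0.42, beside 0.09 over all genes. St14 fell by 1.71 (adjusted p = 0.00909), Prss8 fell by 1.85 (adjusted p = 0.00932), Tmprss11d fell by 4.61 (adjusted p = 0.00651) and Tmprss11e fell by 4.37 (adjusted p = 0.0024). St14 and Prss8 kept their call against control with each array left out, but against Ovol1 KO they lost it without Ovol1 KO 1 or either DKO array, and Tmprss11d lost it without Ovol1 KO 1. Plau lost its call against control without control 1, DKO 1 or either Ovol1 KO array.

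Among inhibitors of such proteases 13 genes of a list of 14 were measured. Against control 3 fell and 0 rose, while 10 missed the threshold, and the median of the 13 was -0.63. Over all genes 2.26% were called lower and 0.943% higher. Against Ovol1 KO 2 fell and 1 rose, beside 1.49% and 0.657% of all genes, and the median of the 13 was -0.28. Spint1 and Spint2 encode the matriptase inhibitors HAI-1 and HAI-2, and they fell by 1.26 (SE 0.20, adjusted p = 0.0267) and fell by 0.63 (SE 0.11, adjusted p = 0.0312). Serpinb8, which encodes a furin inhibitor, fell by 0.87 (adjusted p = 0.0355). Spink5 itself had a log2 fold change of -0.63 (95% interval -1.07 to -0.18, adjusted p = 0.168) and did not pass. Against Ovol1 KO, Spint1 fell by 1.23 (adjusted p = 0.0354) and Spint2 fell by 0.58 (adjusted p = 0.049), while Serpinb1a, which encodes an elastase inhibitor, rose by 1.62 (adjusted p = 0.0455). Serpinb1a lay at 8.11 and 7.33 in DKO, 5.84 and 6.35 in Ovol1 KO, and 6.61 and 6.45 in control. It was among the dimmest 30% of genes, so its low values may be background. Among these inhibitor calls, Spint2 lost its call against control without any 1 of the 6 arrays, Serpinb8 without any array other than control 2, and Spint1 without control 1, DKO 2 or either Ovol1 KO array. Serpinb1a lost its call without DKO 1 or either Ovol1 KO array, and Spint1 and Spint2 lost theirs against Ovol1 KO without either DKO or either Ovol1 KO array, Spint2 also without either control array.

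**Figure D4:**
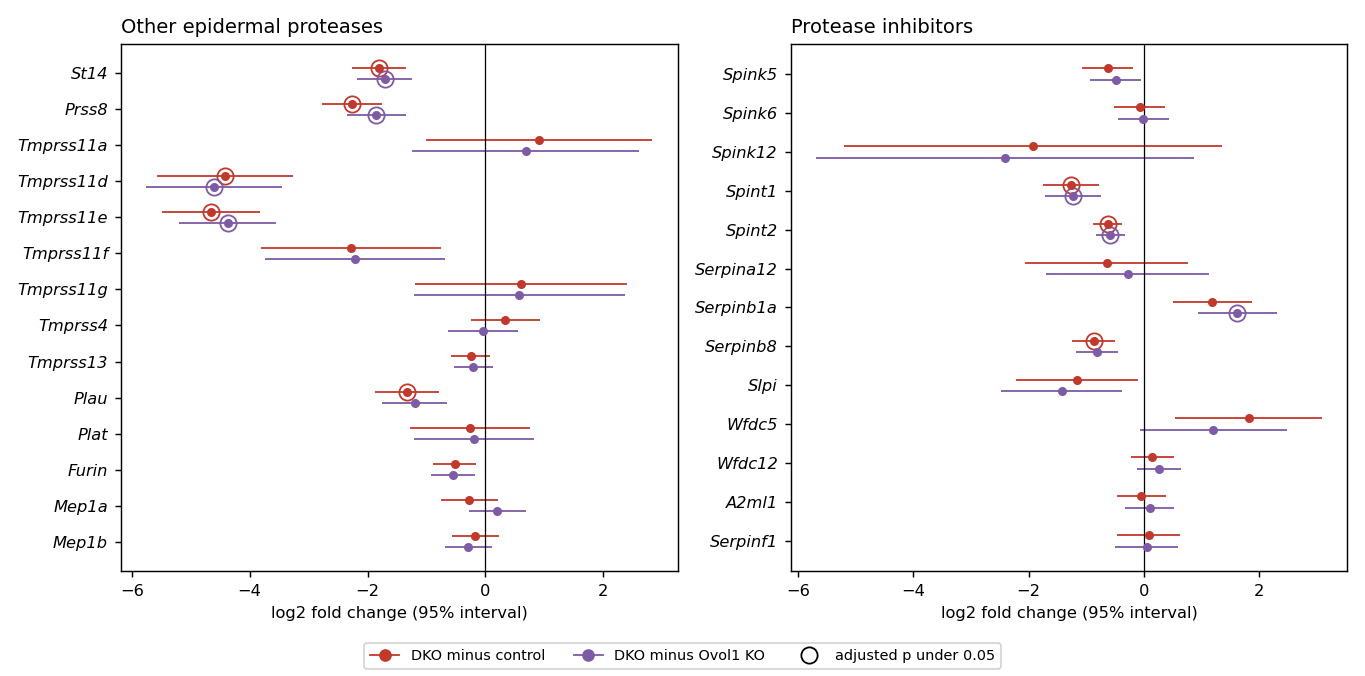
Log2 fold changes with 95% intervals for 14 other epidermal proteases (left) and 13 protease inhibitors (right), with DKO minus control in red above DKO minus Ovol1 KO in purple. Rings mark an adjusted p under 0.05. St14, Prss8, Tmprss11d and Tmprss11e carry rings left of 0 in both comparisons.

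Targets of the kallikreins and other proteases of the cornified layer gave no calls. Of 6 measured substrate genes of a list of 11, 0 passed in either DKO comparison, and 1 had an unadjusted p under 0.05 in each. Over all genes 3.2% were called against control and 2.15% against Ovol1 KO. An unadjusted p under 0.05 was found for 14.5% and 13.3% of all genes. Cdsn, which encodes the corneodesmosin cut by KLK5 and KLK7, lay at 12.68 and 12.44 in DKO, 12.85 and 12.44 in Ovol1 KO, and 12.95 and 12.85 in control. Its log2 fold change against control was -0.34 (95% interval -0.70 to 0.02, adjusted p = 0.377). Dsg1b, a desmoglein of the upper epidermis, had 0.77 (95% interval -0.55 to 2.10, adjusted p = 0.639). Of 10 other proteases and related genes of the cornified layer 0 passed. In each DKO comparison 5 had an unadjusted p under 0.05, beside the same 14.5% and 13.3% of all genes. Ctsd, which encodes cathepsin D, had -0.59 against control (adjusted p = 0.0581), and Ctsc, which encodes cathepsin C, had 0.93 (adjusted p = 0.101).

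Genes of terminal differentiation rose in part over the same arrays. Of 17 measured genes of a list of 18, 4 rose against control and 0 fell, while 13 missed the threshold. The median of the 17 was 0.00, and over all genes 0.943% were called higher and 2.26% lower. Against control Krt1 rose by 4.15 (adjusted p = 0.0222), Krt10 by 4.14 (adjusted p = 0.00352), Lor by 1.95 (adjusted p = 0.0194) and Tgm3, a transglutaminase gene, by 2.68 (adjusted p = 0.0421). The same 4 passed against Ovol1 KO, where 0.657% of all genes were called higher. Krt1 and Krt10 encode keratins of suprabasal cells. Krt1 on DKO 1 was at 14.70, the value that Kdm5d had on 3 arrays and the highest that the normalized scale gives, so its fold change rests on a value at the top of the scale. Lor, which encodes the envelope protein loricrin, lay at 11.49 and 12.29 in DKO, 10.35 and 9.87 in Ovol1 KO, and 9.92 and 9.96 in control. Klk8, which like Lor is a gene of the upper epidermis, was lower on the arrays on which Lor was higher. Lor is 1 of the 4 called genes, and the median of the 17 was 0.00, so it does not stand for the whole list. The relation of Klk8 to differentiation was not tested. Lor lost its call against control without DKO 2 (log2 fold change 1.55, adjusted p = 0.0704), and Krt1 and Tgm3 lost theirs without either Ovol1 KO array. Against Ovol1 KO, Krt10 lost its call without Ovol1 KO 1, Krt1 and Tgm3 without either Ovol1 KO array, and Lor without DKO 2 or either Ovol1 KO array. With the Xist level as a covariate, the calls in these lists came to 0 against control and 1 against Ovol1 KO, that of Tmprss11e.

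The genes whose profile over the 6 arrays was most like that of Klk8 were Usp43, Ssh1, Wipi1, Olfr1384 and Dbndd2. Likeness was the root mean square difference after each gene was centred on its own mean, which was 0.04 for Usp43, 0.05 for Ssh1, 0.07 for Wipi1 and Olfr1384, and 0.08 for Dbndd2. The nearest other kallikrein was Klk7, at 0.42. Wipi1, which encodes a protein of autophagosome formation, lay at 10.35 and 10.06 in DKO, 11.68 and 11.32 in Ovol1 KO, and 11.64 and 11.38 in control. Ssh1, which encodes a phosphatase of the actin regulator cofilin, lay at 8.80 and 8.69 in DKO, 10.33 and 9.76 in Ovol1 KO, and 10.30 and 9.92 in control. These genes were chosen for their likeness over 6 arrays, so their own differences are given as a description.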

How the data were processed

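The authors deposited 1 summarised linear intensity for each probe set on each array. Expression Console 1.1.1 (Affymetrix) and PLIER 2.0 are listed, without saying what each did, in the submitters' processing notes. No source used here gives the background correction or normalization. The deposited table held 35556 probe sets, with array medians from 174.2 to 203.6. An offset of 16 was added, log2 was taken and the arrays were quantile-normalized, as their quartiles differed by up to 0.218. The 21789 probe sets with 1 gene symbol gave 19938 genes, by the brightest probe set of a gene. limma 3.58.1 in R 4.3.3 fitted a mean per genotype over 6 arrays, with a variance trend, 3 residual and 3.89 prior degrees of freedom, and was tested on simulated data. p-values thus borrow spread from all 3 genotypes. The members and lists were chosen with earlier results of these data known. Named genes were all members, Ovol1, Ovol2, Xist and Kdm5d, from up to 4 genes of each list and comparison with the smallest p and any other called one, the 5 genes most like Klk8, the member with the smallest p, and the 5 measured neighbours on either side. Genes named beyond these were chosen after their values were seen. Replicates were not treated as pairs. Alternatives were offsets of 1 and 64, the values as deposited, the dimmest 30% of genes left out, other eBayes settings, the mean over probe sets, 4 arrays only, the replicate number as a block, Xist as a covariate, and each array left out. The number of arrays limits the precision.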

Additional observations from a re-analysis of the deposited data

How the results depend on the processing

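Of the 10 members 1 was called in each DKO comparison, and this count stayed at 1 with both other offsets, the values as deposited, the dimmest 30% of genes left out, both other eBayes settings and the mean over probe sets. Against control it was 2 with the replicate block, 0 with Xist as a covariate and 0 to 2 with single arrays left out. Against Ovol1 KO it was 3 from the 4 arrays compared, 2 with the replicate block, 0 with Xist as a covariate and 0 to 3 with single arrays left out. Against control the block call was that of Klk13, besides Klk8, at an unchanged log2 fold change of 2.83 (adjusted p = 0.00403), and against Ovol1 KO at 2.53 (adjusted p = 0.00652). The deviations of same-numbered arrays from their group means correlated over genes at 0.15 between DKO and control, 0.69 between Ovol1 KO and control and 0.09 between DKO and Ovol1 KO. Over all genes control 1 correlated more with Ovol1 KO 1 (0.9937) than with control 2 (0.9786), and control 2 more with Ovol1 KO 2 (0.9917). The labels do not say what a number marks, and the arrays were not treated as pairs. The block raised the calls over all genes to 1069 against control and 805 against Ovol1 KO, beside 639 and 429 without it. With Xist as a covariate these counts were 8 and 73.

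In the other lists together 12 genes were called against control and 11 against Ovol1 KO. Against control the count was 7 from the 4 arrays compared, 0 with Xist as a covariate and 7 to 16 with single arrays left out. Against Ovol1 KO it was 7 without the variance trend, 1 with Xist as a covariate and 1 to 16 with single arrays left out. Without the trend the calls of Spint2, Serpinb8 and Tgm3 against control were lost, and those of Spint1, Spint2, Serpinb1a and Tgm3 against Ovol1 KO. Robust eBayes lost Krt1 and Tgm3 in both comparisons and Spint2 against Ovol1 KO. Its count against Ovol1 KO still came to 11, so other genes gained a call there. An offset of 64 lost Serpinb1a, Spint2 and Tgm3 against Ovol1 KO. Leaving out the dimmest genes lost Tgm3 there and left Serpinb1a untested. Plau, Spint1, Spint2, Serpinb8, Krt1 and Tgm3 lost their calls against control from the 4 arrays compared, and Spint2 against Ovol1 KO. Other genes gained a call with that setting, as the counts were 7 against control and 16 against Ovol1 KO. For Ovol1 KO against control the members and the lists had 0 calls under every alternative run.

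Signs turned for values that had not passed. With Xist as a covariate the log2 fold change against control was 1.82 for Klk6, 0.22 for Klk7, -0.084 for Klk12 and 0.077 for Cdsn. Under the same covariate it was 0.29 for Klk6, 0.0097 for Klk7, -0.13 for Klk9, 0.57 for Klk10 and -0.066 for Klk12 in DKO against Ovol1 KO. For Ovol1 KO against control it gave 0.48 for Klk5, 0.21 for Klk7, 0.19 for Klk8, -0.018 for Klk12 and 0.62 for Klk14. With the values as deposited, DKO against Ovol1 KO was -0.022 for Klk9 and 0.043 for Klk10. An offset of 1 turned Klk14 in Ovol1 KO against control to 0.0034. Within a genotype Xist differed widely only between Ovol1 KO 1 and Ovol1 KO 2, so the covariate values rest almost wholly on that pair. Those arrays also differ in replicate number, and what their difference reflects was not tested. The cause of the other turns was not tested either.

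With single arrays left out, DKO against control ran from -0.37 to 0.98 for Klk5, -2.61 to 0.84 for Klk6, -1.06 to -0.25 for Klk7, -1.48 to -1.10 for Klk8, -1.13 to 0.73 for Klk9, -0.59 to 1.18 for Klk10, 0.23 to 3.02 for Klk11, 1.79 to 3.88 for Klk13 and -3.48 to -0.57 for Klk14. DKO against Ovol1 KO ran from -0.20 to 1.01 for Klk5, -2.46 to 0.23 for Klk6, -0.89 to -0.0092 for Klk7, -1.49 to -1.05 for Klk8, -0.92 to 0.93 for Klk9, -0.54 to 0.54 for Klk10, -0.077 to 1.87 for Klk11, -0.059 to 0.15 for Klk12, 1.65 to 3.41 for Klk13, -2.67 to -1.35 for Klk14 and -0.069 to 1.21 for Dsg1c. Ovol1 KO against control ran from -0.78 to 0.57 for Klk5, -1.49 to 1.96 for Klk6, -0.65 to 0.23 for Klk7, -0.24 to 0.20 for Klk8, -0.59 to 1.18 for Klk10, -0.67 to 2.13 for Klk11, -0.020 to 0.19 for Klk12, -0.74 to 1.35 for Klk13 and -1.47 to 1.44 for Klk14.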

Other observations

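The split between the arrays of the Ovol1 KO and control groups also touched other genes of the cornified layer, which were chosen after their values were seen. Spink12, a member of the serine protease inhibitor family of Spink5, lay at 5.88 and 5.83 in DKO, 9.76 and 6.76 in Ovol1 KO, and 9.84 and 5.71 in control. As for Klk6 and Klk14, replicate 1 was the higher array in Ovol1 KO and in control. Lce1a1, a late cornified envelope gene, lay at 7.81 and 11.36 in DKO, 11.24 and 7.60 in Ovol1 KO, and 12.36 and 8.88 in control, so its order was turned in the DKO arrays. Rptn, which encodes the envelope protein repetin, lay at 6.42 and 9.03 in DKO, 6.75 and 9.01 in Ovol1 KO, and 6.64 and 9.12 in control, with replicate 2 higher in every genotype. Differentiation genes therefore did not all split in the same direction. Among 13 inhibitors, Spink12, Serpina12 and Wfdc5 were at least 1 log2 unit apart between the control arrays, and control 1 was higher for all 3.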
